A study of Mus musculus with 27 samples.

Results

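The 10 genes described here carry, relay or modify insulin and insulin-like growth factor (IGF) signals: Igf1, Insr, Igf1r, Irs1, Irs2, Akt2, Foxo1, Igfbp1, Igfbp2 and Dpp4. CpG positions were taken from the span of each gene in mouse genome build GRCm38 plus 5 kb on either side, and were kept when listed in at least 2 of 3 samples of every strain. This left 1802 of the 3582 positions listed there in any sample, out of 1951655 kept positions in the whole series. DNA methylation had been measured by reduced representation bisulfite sequencing (RRBS), which reads CpG-rich MspI fragments, in liver hepatocytes of 27 female mice aged 12 weeks. The mice belonged to 9 inbred strains with 3 samples each, titled as biological replicates: the classical strains C57BL/6J, 129S1/SvImJ, DBA/2J and A/J, the wild-derived WSB/EiJ, PWK/PhJ and CAST/EiJ, and the disease models NZO/HlLtJ and NOD/ShiLtJ. No treatment or targeted allele is given for any group, and no strain served as a control. NOD/ShiLtJ is used as a model of autoimmune diabetes and NZO/HlLtJ as a model of polygenic obesity and type 2 diabetes. Blood glucose and body weight are not given in the labels, so whether any mouse was diabetic is unknown here.

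Insulin and IGF1 bind related receptor tyrosine kinases, Insr and Igf1r, which phosphorylate the docking proteins Irs1 and Irs2. These recruit phosphatidylinositol 3-kinase, which activates Akt kinases, and in hepatocytes Akt2 is the form most tied to metabolic control. Akt phosphorylates the transcription factor Foxo1 and so keeps it out of the nucleus, where Foxo1 would otherwise raise genes of glucose production as well as Irs2 and Igfbp1. Liver is the main source of circulating Igf1 and of the binding proteins Igfbp1 and Igfbp2, which hold IGFs in plasma. Dpp4 is a cell-surface peptidase that cleaves incretins, the gut hormones that enhance insulin release. Methylation of CpG-dense promoters generally accompanies silencing, and such promoters are usually unmethylated in healthy tissue, whereas gene bodies are usually methylated.

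The promoters of the 10 genes ranged from CpG-dense to CpG-poor, and the 3 with the fewest CpGs among those with a RefSeq window had no kept position. RefSeq promoter windows (build GRCm38.p6, from 250 bases before to 50 after the annotated start) were at hand for 9 of the 10 genes, all but Insr. The 5 windows shown here run 5′ to 3′ on the strand of the gene, and were chosen because they span dense to sparse CpG content and set promoters that were read beside promoters that were not. Capitals mark CpG dinucleotides. They are Irs2 (chr8:11008880-11009179, minus strand), Igf1r (chr7:67952007-67952306, plus), Igfbp2 (chr1:72824230-72824529, plus), Igfbp1 (chr11:7197537-7197836, plus) and Dpp4 (chr2:62412182-62412481, minus).
Irs2: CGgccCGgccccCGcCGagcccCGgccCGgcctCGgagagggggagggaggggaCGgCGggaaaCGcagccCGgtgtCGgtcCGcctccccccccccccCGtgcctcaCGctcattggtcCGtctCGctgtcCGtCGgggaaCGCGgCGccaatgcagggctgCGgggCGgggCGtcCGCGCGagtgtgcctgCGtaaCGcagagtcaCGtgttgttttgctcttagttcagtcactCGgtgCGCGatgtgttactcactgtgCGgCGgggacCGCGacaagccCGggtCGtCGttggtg
Igf1r: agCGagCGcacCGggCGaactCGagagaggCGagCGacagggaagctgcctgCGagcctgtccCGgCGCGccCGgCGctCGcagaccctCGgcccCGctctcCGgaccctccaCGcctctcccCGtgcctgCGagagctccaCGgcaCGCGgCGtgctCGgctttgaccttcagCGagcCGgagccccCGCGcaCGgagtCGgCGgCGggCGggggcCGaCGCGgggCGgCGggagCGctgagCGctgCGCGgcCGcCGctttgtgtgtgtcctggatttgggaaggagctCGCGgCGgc
Igfbp2: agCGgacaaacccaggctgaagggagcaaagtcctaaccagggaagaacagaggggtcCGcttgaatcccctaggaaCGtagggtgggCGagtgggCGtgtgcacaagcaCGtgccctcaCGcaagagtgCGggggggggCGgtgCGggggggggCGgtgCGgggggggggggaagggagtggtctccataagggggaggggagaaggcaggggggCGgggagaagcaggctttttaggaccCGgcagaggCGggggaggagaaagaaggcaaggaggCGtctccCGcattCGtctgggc
Igfbp1: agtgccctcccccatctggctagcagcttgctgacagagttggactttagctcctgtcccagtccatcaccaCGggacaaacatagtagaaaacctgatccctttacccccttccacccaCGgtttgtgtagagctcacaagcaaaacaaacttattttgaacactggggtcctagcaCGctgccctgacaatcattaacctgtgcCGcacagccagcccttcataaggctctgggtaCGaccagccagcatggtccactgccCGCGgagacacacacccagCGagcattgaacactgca
Dpp4: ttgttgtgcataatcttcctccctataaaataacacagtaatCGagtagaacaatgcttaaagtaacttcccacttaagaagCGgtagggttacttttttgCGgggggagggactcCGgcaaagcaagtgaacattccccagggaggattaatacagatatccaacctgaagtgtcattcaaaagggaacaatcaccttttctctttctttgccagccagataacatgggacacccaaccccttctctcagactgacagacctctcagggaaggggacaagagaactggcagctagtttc

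The Igf1r window held 48 CpGs and the Irs2 window 41, against a median of 7 over the 32851 windows in the table. Foxo1 held 31, Irs1 28, Igfbp2 18 and Akt2 12 at their most 5′ start. At the other end stood Igfbp1 with 8 CpGs, Igf1 with 6 and Dpp4 with 4. No position was kept in the Igfbp1, Igf1 or Dpp4 window, whereas the Igf1r window held 64 kept positions with a mean methylation of 0.797% and no sample above 1.46%. The Irs2 window held 9 kept positions with a mean of 0.574%, and the Igfbp2 window 7 with a mean of 0.687%. The letters CAAAACA, the core of the insulin response element to which Foxo proteins bind in the Igfbp1 promoter, were searched on both strands. They occurred once in the Igfbp1 window, 108 bases upstream of the start, and also in the Irs1 window (2 times, 111 and 32 bases upstream) and once in the Irs2 window (37 bases upstream), against 6.28% of all windows holding them. GTAAACA, another Foxo binding motif, occurred in none of the 9 genes' windows at their most 5′ start and in 3.65% of all windows. The motifs differ in their first letters, so no site was counted under both.

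The 7 promoters or gene ends with kept positions were nearly unmethylated in every strain. A promoter was taken as the stretch within 1 kb of the most 5′ annotated start, and the body as the rest of the span. For Igf1 the listed start, chr10:87861111, lies inside the span, which begins at chr10:87858265. For Insr, which has no listed start, both ends of the span were taken and only the higher-coordinate end held kept positions. The number of kept promoter positions was 262 for Igf1r, 248 for Irs2, 175 for Foxo1, 101 for Igfbp2, 52 for Irs1 and 26 for Akt2, with 35 at the Insr end and 0 for Igf1, Igfbp1 and Dpp4. Among the receptors, strain means lay between 0.849% (WSB/EiJ) and 1.38% (A/J) at Igf1r and between 0.351% (PWK/PhJ) and 0.675% (C57BL/6J) at the Insr end. The docking protein genes ranged from 0.495% to 0.778% (Irs1) and from 0.342% to 0.609% (Irs2). Akt2 ranged from 0% in A/J to 0.900% in CAST/EiJ, and Foxo1 from 0.316% to 0.626%. Igfbp2, the only measured binding protein promoter, ranged from 0.444% in WSB/EiJ to 0.911% in CAST/EiJ. The highest value of any promoter in any of the 27 samples was 1.60%, at Igf1r. The highest promoter mean of NZO/HlLtJ or NOD/ShiLtJ was 1.20% (NOD/ShiLtJ at Igf1r), and NOD/ShiLtJ had the highest strain mean at Irs1 (0.778%, with 1 sample at 1.29%) and the lowest at Irs2 (0.342%). At the Igfbp2 promoter their means were 0.731% ± 0.230 (SD, n = 3) and 0.648% ± 0.241 (SD, n = 3), against 0.662% over the 7 other strains. Features with a mean within 2.5 points of 0 or 100% were left out of the tests, so none of these 7 regions was tested. The deposited values are percentages without read counts, so depth is unknown and no counting interval can be given.

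**Figure D1:**
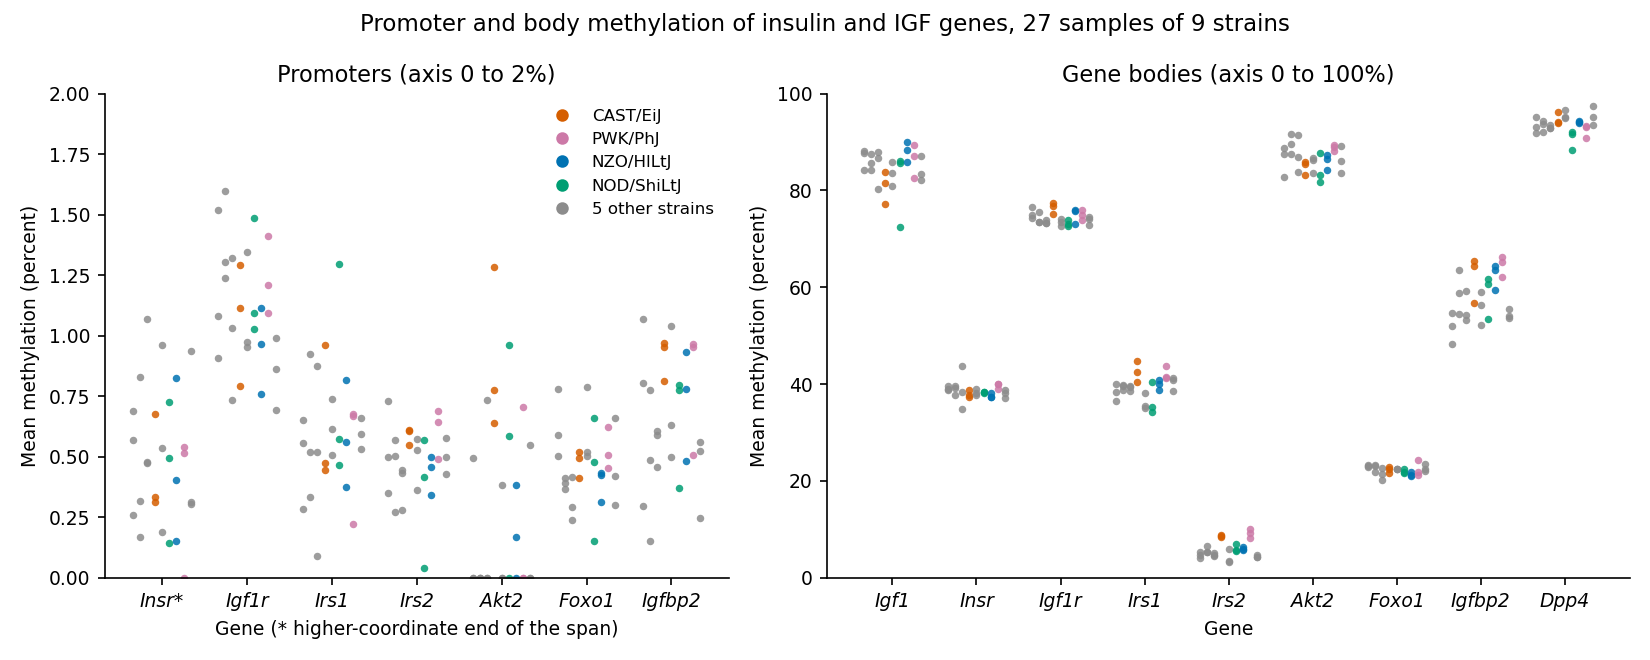
Mean methylation (percent, vertical axes) of promoters (left, axis from 0 to 2%) and gene bodies (right, axis from 0 to 100%) by gene (horizontal axis), one point per sample and 3 points per strain, with strains in alphabetical order from left to right within a gene. Every promoter value lies below the top of its axis, while bodies range from Irs2 near the bottom to Dpp4 near the top, with samples of all strains close together.

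Further from the start, the unmethylated stretches ended at different distances. At Irs2, 379 consecutive kept positions from -890 to 2598 bases relative to the start had means below 10%. The corresponding run at Igf1r held 335 positions, from -1536 to 1089 bases, and that at Igfbp2 108 positions, from -666 to 1105 bases. At Irs1 it held 63 positions, from -705 to 1060 bases, and the next kilobase with enough positions (1439 to 2438 bases downstream) was at 94.2%. Irs1 then fell to a mean of 32.2% at 3439 to 4438 bases and to 0.689% over 38 positions at 7439 to 8438 bases downstream. A second unmethylated stretch inside a gene was also present in Insr, where 33 positions at 57649 to 58648 bases from the higher-coordinate end averaged 0.570%, while the 1 kb tile at 53649 to 54648 bases stood at 84.0%. Akt2 has 4 listed starts, and they differed: 26 positions around the most 5′ start had a mean of 0.287%, whereas 5 positions around the second, at chr7:27596830, had a mean of 68.3%, with strain means from 62.4% to 80.6%. Near the 2 other Akt2 starts no position was listed. Of the 1802 kept positions, 70.9% were below 10%, 12.4% between 10 and 90% and 16.8% above 90%, compared with 60.8%, 19.6% and 19.5% of kept positions in the whole series.

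**Figure D2:**
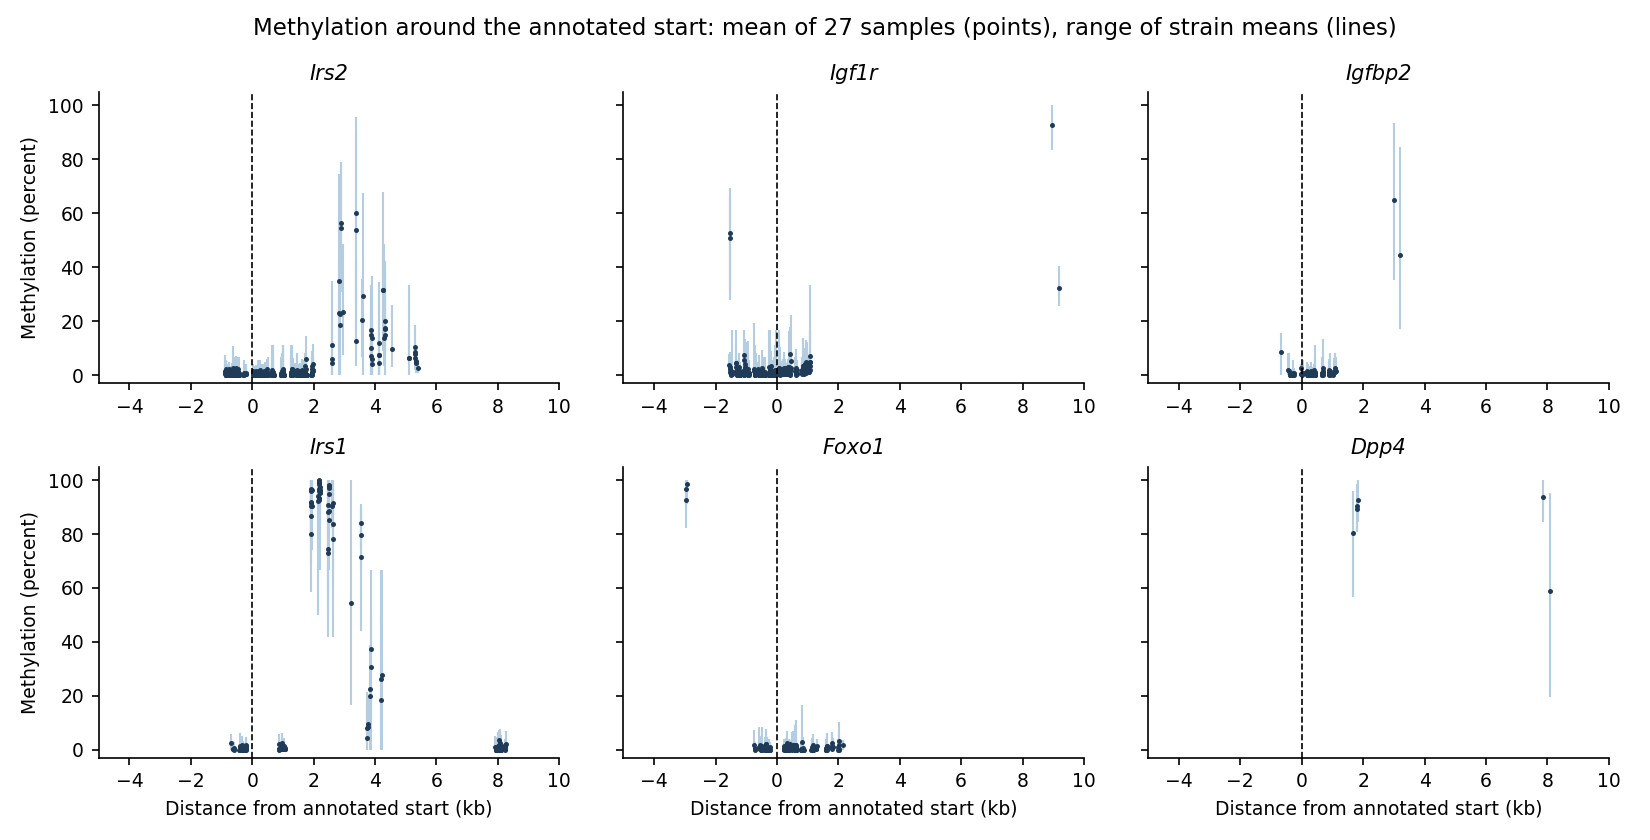
Methylation (percent) of single kept positions from 5 kb upstream to 10 kb downstream of the annotated start (horizontal axis, kb) for 6 of the genes; points are means of 27 samples, and vertical lines span the lowest to the highest strain mean. Points lie near 0 around the start of Irs2, Igf1r, Igfbp2, Irs1 and Foxo1, rise to intermediate levels with wide strain ranges beyond 2598 bases at Irs2, and Dpp4 has no kept position within 1 kb of its start.

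Body levels separated the genes far more than the strains. The Igf1 body was highly methylated, with strain means from 80.9% in CAST/EiJ to 88.1% in NZO/HlLtJ over 11 positions, the first of them 10447 bases downstream of the start. Of the receptors, the Igf1r body (251 positions) lay between 73.2% in NOD/ShiLtJ and 76.5% in CAST/EiJ, and the Insr body (65 positions, 33 of them in the internal unmethylated tile) between 37.6% in NZO/HlLtJ and 39.7% in PWK/PhJ. The Irs1 body (103 positions) ranged from 36.2% in DBA/2J to 42.5% in CAST/EiJ. The Irs2 body (180 positions) was the lowest, from 4.21% in DBA/2J to 9.14% in PWK/PhJ. The unmethylated run of 379 positions around the Irs2 start reaches 2598 bases downstream. It thus extends past the 248 promoter positions into this body and lowers the body mean. Akt2 (25 positions) ranged from 84.2% in NOD/ShiLtJ to 89.6% in A/J. The Foxo1 body (61 positions) ranged only from 21.4% in NZO/HlLtJ to 23.0% in 129S1/SvImJ; its first kilobases were unmethylated (0.383% at 664 to 1663 bases), and it was at 92.0% at 31664 to 32663 bases downstream. Igfbp2 (30 positions) ranged from 51.6% to 64.6%, and Dpp4 (36 positions) from 90.7% in NOD/ShiLtJ to 95.6% in DBA/2J. Igfbp1 had 8 kept positions, none of them within its own span: 6 lay in the neighbouring gene Igfbp3, and their overall level, 83.2% to 90.3% by strain, is not a level of the Igfbp1 promoter or body. At Irs2, 258 of the 430 kept positions also lay in 9530052E02Rik, and at Igf1r 29 lay in other annotated genes, so that these values cannot be assigned to 1 gene. Exons and introns were not distinguished here.

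The body of Igfbp2 was the only gene body that differed among strains by both criteria, an adjusted p under 0.05 and strain means at least 10 points apart. Its 3 samples read 66.3, 62.2 and 65.1% in PWK/PhJ, 63.5, 64.4 and 59.5% in NZO/HlLtJ, and 56.7, 65.5 and 64.3% in CAST/EiJ. They read 54.7, 51.9 and 48.3% in 129S1/SvImJ, 54.0, 55.5 and 53.6% in WSB/EiJ, 53.2, 59.1 and 54.3% in C57BL/6J, and 52.2, 59.1 and 56.4% in DBA/2J. Values for A/J (54.4, 63.5 and 58.8%) and NOD/ShiLtJ (60.6, 53.5 and 61.8%) overlapped both of these sets of strains. All PWK/PhJ and all NZO/HlLtJ samples lay above all samples of 129S1/SvImJ, WSB/EiJ, C57BL/6J and DBA/2J, while CAST/EiJ overlapped 2 of these. The lowest strain mean was 51.6% ± 3.22 in 129S1/SvImJ and the highest 64.6% ± 2.12 in PWK/PhJ (SD, n = 3 each), 12.9 points apart (limma's moderated F test across all promoters and bodies, adjusted p = 0.0140). This was 1 of the 9 tested bodies, or 11.1%, and 16.3% of all 25533 promoters and bodies tested were called in the same way. The call ended when each sample was centred on the median of all samples (adjusted p = 0.0530), when the promoter was narrowed to 500 bases either side (range 7.89 points) and without CAST/EiJ and PWK/PhJ (adjusted p = 0.127).

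Irs2 showed the smallest p-value of the 10 genes but a narrow range. Body values were 8.85, 8.47 and 8.64% in CAST/EiJ and 9.19, 8.25 and 9.98% in PWK/PhJ, while the 21 samples of the other strains lay between 3.25% and 6.89%. The groups did not overlap: all 6 CAST/EiJ and PWK/PhJ samples were above all others, which held for 1.05% of all promoters and bodies tested; this comparison was chosen after the values were seen. The strain means differed (limma, adjusted p = 4.0e-05), but the range of 4.93 points stayed below the minimum of 10. The Irs1 and Dpp4 bodies also had an adjusted p under 0.05 with small ranges, 6.24 points (adjusted p = 0.0326) and 4.85 points (adjusted p = 0.0322). That made 4 of 9 bodies below 0.05 when no minimum range was asked for, against 29.9% of all promoters and bodies. The other 5 bodies had adjusted p-values of 0.180 (Igf1r), 0.296 (Akt2), 0.373 (Igf1), 0.712 (Foxo1) and 0.941 (Insr). The promoters and bodies of other genes whose levels were most like the Irs2 body over the 27 samples were the Zfp362 body (Pearson's r = 0.919), the Pi16 body (0.918) and the Gm52679 promoter (0.918), out of 25394 compared. These points share strains and libraries, so the correlations are a description.

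Resolved into 1 kb tiles with at least 5 positions, the difference in Irs2 sat where its unmethylated stretch ends. The tile at chr8:11005001-11006000, 2929 to 3928 bases downstream of the start, had 13 positions and a mean of 21.0%. Its samples read 39.7, 27.5 and 38.5% in CAST/EiJ and 33.6, 35.9 and 36.5% in PWK/PhJ, then 26.5, 22.4 and 23.0% in NZO/HlLtJ and 16.0, 18.6 and 26.5% in NOD/ShiLtJ. The samples of 129S1/SvImJ, A/J, C57BL/6J, DBA/2J and WSB/EiJ lay between 8.59% and 22.9%. CAST/EiJ and PWK/PhJ samples were thus all above the rest, which was true of this 1 of the 48 tested tiles and of 0.732% of tiles in the series, and the 3 NZO/HlLtJ samples lay among the upper of the remaining ones. The range was 23.0 points (limma, adjusted p = 0.000304), just under the 25 points set as the minimum for tiles. CAST/EiJ and PWK/PhJ were also highest in the tiles on either side: the one nearer the start (1929 to 2928 bases) spanned 14.3 points, from 7.23% in 129S1/SvImJ to 21.5% in PWK/PhJ (adjusted p = 0.000521), and the one further away (3929 to 4928 bases) spanned 20.4 points, from 9.20% in DBA/2J to 29.6% in CAST/EiJ (adjusted p = 0.00899). NZO/HlLtJ and NOD/ShiLtJ were intermediate in the tile nearer the start (14.6% ± 2.43 and 14.6% ± 2.37) and low in the one further away (11.3% ± 3.39 and 9.27% ± 3.74, SD, n = 3 each). The 2 tiles inside the unmethylated stretch, at 929 to 1928 bases and at the start itself, had means of 0.623% and 0.450%, with strain ranges below 1 point. A further tile at the 3′ side of the gene, 21929 to 22928 bases from the start, had another order, with A/J highest at 38.2% ± 1.37 and DBA/2J lowest at 20.6% ± 1.63 (SD, n = 3 each, adjusted p = 0.0336).

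Igf1r, the largest gene of the set, held the 2 tiles that met both criteria. At chr7:68133001-68134000, 180744 to 181743 bases downstream of the start and within the gene, 8 positions averaged 55.7, 49.5 and 51.7% in the PWK/PhJ samples and 43.5, 34.4 and 43.5% in the CAST/EiJ samples. DBA/2J followed with 41.6, 35.1 and 25.6%, and the 18 samples of the other 6 strains lay between 15.1% and 33.3%. Every PWK/PhJ sample was above every sample of the other strains, whereas CAST/EiJ and DBA/2J overlapped. The range was 30.2 points, from 22.1% ± 2.46 in 129S1/SvImJ to 52.3% ± 3.13 in PWK/PhJ (SD, n = 3 each; limma, adjusted p = 0.000604). At chr7:68208001-68209000, 255744 to 256743 bases downstream, 5 positions averaged 62.2, 65.4 and 70.8% in CAST/EiJ and 64.4, 60.2 and 71.1% in PWK/PhJ. DBA/2J samples were scattered at 32.8, 71.1 and 58.8%, and the remaining samples lay between 30.7% and 55.7%. The range here was 30.8 points, from 35.3% in WSB/EiJ to 66.2% in CAST/EiJ (adjusted p = 0.0115). The neighbouring tile on the 5′ side of this one had a mean of 95.3% with a strain range of 4.69 points, so the wide range was seen in 1 of these 2 adjoining tiles. Without CAST/EiJ and PWK/PhJ neither tile was called (adjusted p = 0.466 and 0.622). These 2 tiles were 4.17% of the 48 tested in the 10 genes, and 7.75% of all 58172 tiles tested were called. With no minimum range, 8 of 48 had an adjusted p under 0.05, against 20.6% in the series. For genes with no called tile, the tile with the widest strain range spanned 24.6 points in Irs1, 16.5 in Akt2, 15.6 in Insr, 6.59 in Dpp4 and 4.59 in Igf1, and, past the end of the gene, 26.6 at Igfbp2, 13.7 at Foxo1 and 7.73 at Igfbp1; none of these had an adjusted p under 0.05, and the Igf1 tile, at a mean of 98.0%, was not tested.

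**Figure D3:**
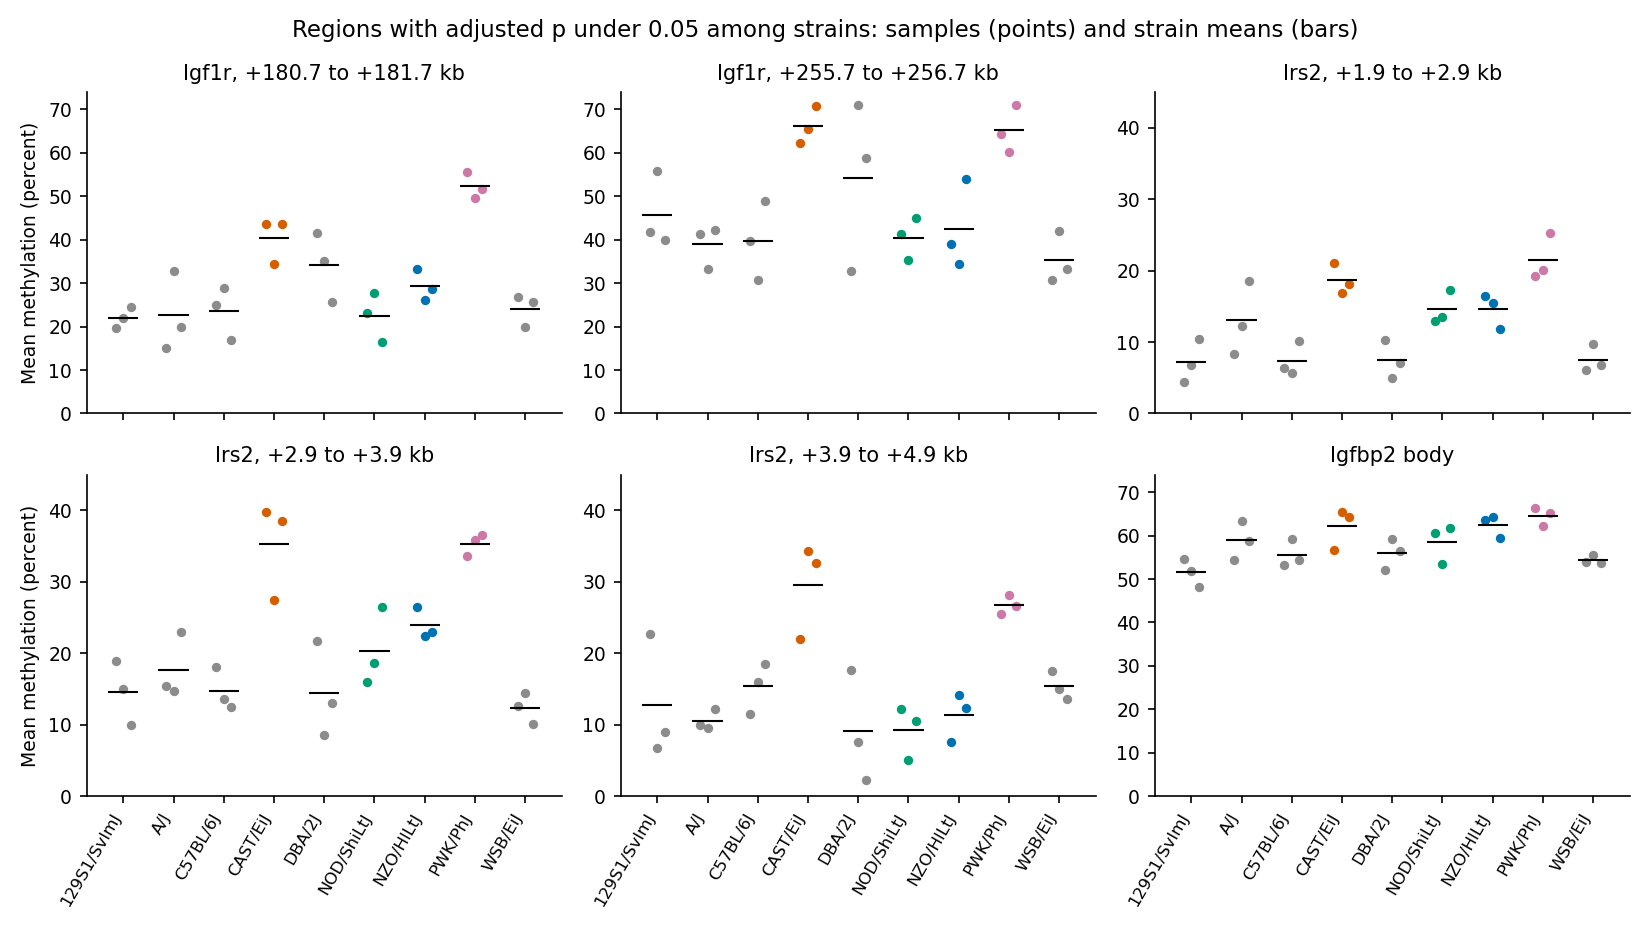
Mean methylation (percent, vertical axes, on 2 scales) by strain (horizontal axis) in the 2 called Igf1r tiles, 3 Irs2 tiles and the Igfbp2 body. The Irs2 tiles lie across and beyond the end of its unmethylated stretch. Points are samples and bars are strain means, and panel titles give distances from the start. PWK/PhJ and CAST/EiJ means are the highest in the Irs2 and Igf1r panels, and NZO/HlLtJ lies between them in the Igfbp2 panel.

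At single positions, 19 of the 568 tested in the 10 genes were called different among strains, with an adjusted p under 0.05 and strain means at least 25 points apart. This is 3.35%, and 4.33% of all 868537 tested positions were called. The called positions were spread over Igf1r (8), Irs2 (5), Igfbp2 (4) and Insr (2), and none lay in a promoter. The absence of promoter calls is no result of the test. Of the 1802 kept positions, 1175 were left out because their means were too close to 0. The measured promoters averaged near 0 in every strain, which leaves little room for strain means 25 points apart. CAST/EiJ was highest at 8 of the called positions and PWK/PhJ at 7, together 78.9%, compared with 43.0% of called positions in the whole series. Leaving out CAST/EiJ and PWK/PhJ left 1 called position, and leaving out the CAST/EiJ sample numbered 1 left 12. Of the positions in these genes that every C57BL/6J sample listed, 7.59% were absent from all CAST/EiJ samples and 6.00% from all PWK/PhJ samples, against at most 0.943% (WSB/EiJ) for the other strains; in the whole series these shares were higher, 12.1%, 12.0% and 5.49%. Whether sequence differences between strains underlie the methylation values was not tested.

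In Igfbp2, 3 called positions 14973 to 15005 bases into the gene set CAST/EiJ and PWK/PhJ apart. At chr1:72839453 the CAST/EiJ samples read 80, 100 and 83.3% and the PWK/PhJ samples 53.8, 100 and 80%, while the other 21 samples read at most 37.5%. At chr1:72839485 CAST/EiJ read 80, 71.4 and 80% and PWK/PhJ 75.0, 85.7 and 75.0%, with all other samples at or below 40.0%. These were the 2 of 568 member positions (0.352%) at which all samples of both strains exceeded all others, found at 0.157% of positions in the series; this too was chosen after the values were seen. The strain means spanned 85.9 points at the first position (limma, adjusted p = 0.000427) and 78.6 points at the second (adjusted p = 0.000502). The opposite strand of the same CpG, chr1:72839484, read 20, 66.7 and 50% in CAST/EiJ, which overlapped A/J and NZO/HlLtJ (adjusted p = 0.0208). It lost its call without any 1 of the PWK/PhJ samples (adjusted p = 0.0545 to 0.0713). The same held with an offset of 1 (adjusted p = 0.142) and without the filter on the mean (adjusted p = 0.0726). The fourth Igfbp2 position, chr1:72848817, was listed in only 22 samples and followed another order: both listed A/J samples read 100%, all 5 values of 129S1/SvImJ and C57BL/6J were 0%, and the other strains scattered (adjusted p = 0.0397). This call was lost under 22 of 37 alternatives, among them leaving out either listed sample of A/J or of 129S1/SvImJ, with adjusted p-values up to 0.199.

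In Irs2, 2 CpGs accounted for 4 of the 5 called positions, read on both strands, and CAST/EiJ and PWK/PhJ were high at all of them. At chr8:11005540, 3389 bases downstream of the start, samples read 90, 95.5 and 82.6% in CAST/EiJ, 87.0, 66.7 and 75.0% in PWK/PhJ, and 75.0, 72.7 and 76.9% in NZO/HlLtJ. Values were 65.5, 45.5 and 58.3% in NOD/ShiLtJ, and 18.8, 30.8 and 0% in WSB/EiJ, the lowest strain (range 72.8 points, limma, adjusted p = 0.00339). The NZO/HlLtJ samples lay among those of PWK/PhJ, whereas the NOD/ShiLtJ mean of 56.4% was nearer to A/J at 48.1%. On the other strand, chr8:11005541, the means were 95.8% in CAST/EiJ, 84.4% in PWK/PhJ, 81.7% in NZO/HlLtJ, 67.5% in NOD/ShiLtJ and 26.1% to 55.2% in the other strains (adjusted p = 0.00677). At chr8:11006035, 2894 bases downstream, NOD/ShiLtJ read 75.0, 85.7 and 75.0% and NZO/HlLtJ 86.2, 85.0 and 57.7%, near the CAST/EiJ mean of 79.1% and the PWK/PhJ mean of 76.9%. A/J averaged 50.7% there, and 129S1/SvImJ, C57BL/6J, DBA/2J and WSB/EiJ averaged between 32.7% and 39.1% (adjusted p = 0.00603). The other strand of this CpG, chr8:11006036, did not repeat that closeness. There NZO/HlLtJ at 61.2% and NOD/ShiLtJ at 60.6% were nearer to A/J at 56.0% than to CAST/EiJ at 79.0% and PWK/PhJ at 79.1% (adjusted p = 0.00498). This call was lost with an offset of 1 (adjusted p = 0.0669). The positions of this paragraph other than chr8:11005540 were chosen after their values were seen.

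In Igf1r and Insr, called positions also included some in which a single strain stood low. At Igf1r chr7:68049353, 97096 bases into the gene, DBA/2J read 0 and 50% in its 2 listed samples, while all other listed samples read 100% apart from 1 NZO/HlLtJ sample at 75.0% (adjusted p = 0.000802). This position kept its call without CAST/EiJ and PWK/PhJ. At Igf1r chr7:67964952 the 2 listed CAST/EiJ samples read 0 and 33.3%, and the other strain means lay between 61.9% and 79.0% (adjusted p = 0.0370). This call was lost under 14 of 37 alternatives, with an adjusted p of 0.547 without the CAST/EiJ sample numbered 1. In Insr, CAST/EiJ was lowest at chr8:3225525 with a mean of 20.1% against 43.4% to 74.3% elsewhere (adjusted p = 0.0400), but the call was lost under 17 of 38 alternatives, including without any 1 of the CAST/EiJ samples (adjusted p = 0.0729 to 0.168). PWK/PhJ was highest at chr8:3252923 with 31.7% against 0% to 14.7% (adjusted p = 0.0111); without its sample numbered 1 the range fell to 22.5 points, below the minimum. A pair of Igf1r positions 39 bases apart, chr7:68102497 and chr7:68102536, had CAST/EiJ means of 95.2% and 84.4% and PWK/PhJ means of 87.5% and 72.2%. The other strain means lay between 27.8% and 58.9%, but at chr7:68102497 a 129S1/SvImJ sample at 91.7% lay above a PWK/PhJ sample at 68.75%. The first of the pair lost its call without the CAST/EiJ sample numbered 1 or 5 (adjusted p = 0.0725 and 0.0722) and without the filter on the mean (adjusted p = 0.0625). The positions of this paragraph other than chr7:68049353 were named after their values were seen.

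**Figure D4:**
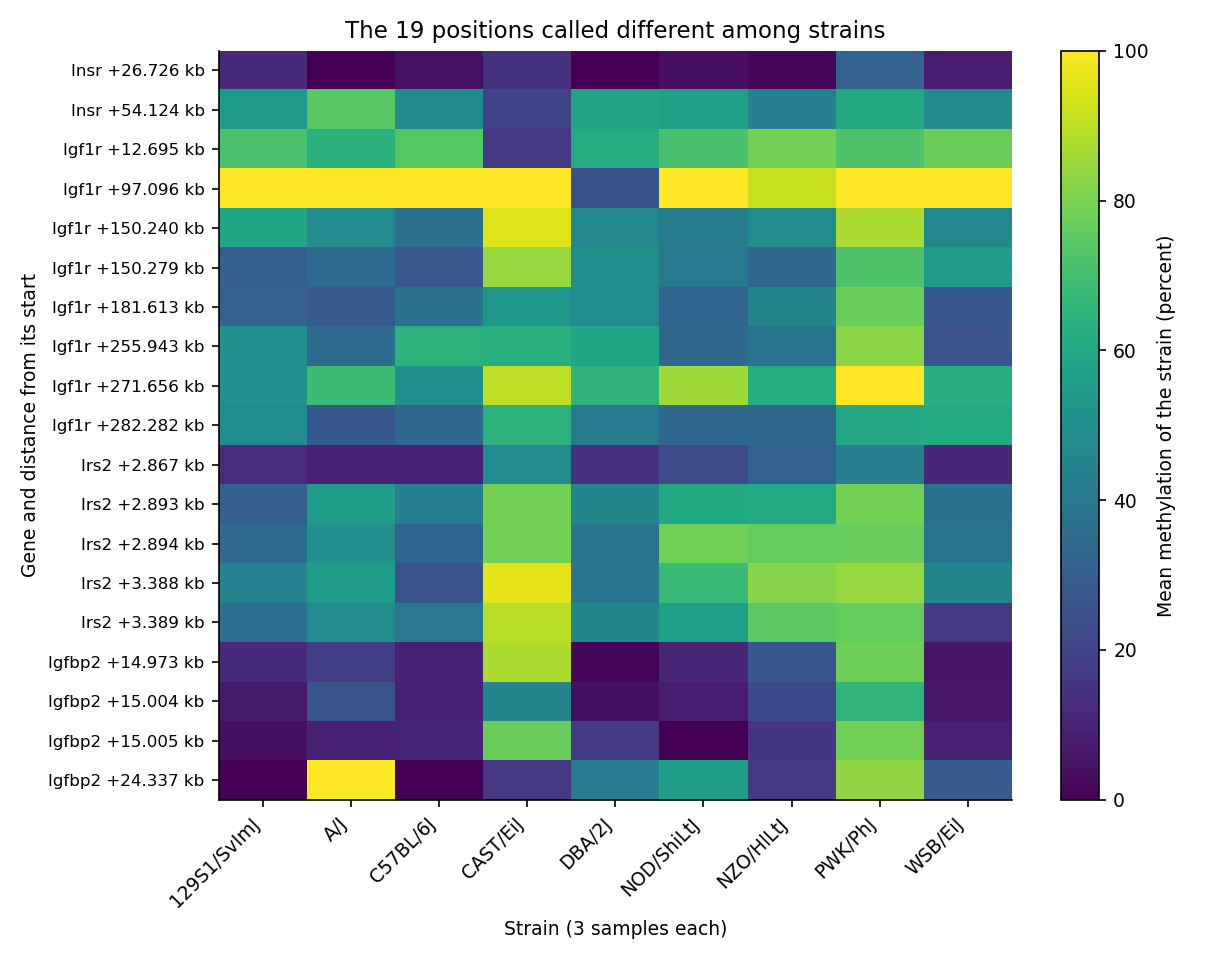
Mean methylation of each strain (colour, percent) at the 19 called positions, labelled by gene and distance from its start in kb (for Insr, from the higher-coordinate end), with strains along the horizontal axis. Bright cells gather in the CAST/EiJ and PWK/PhJ columns at the Igfbp2 and Irs2 rows, and single dark cells mark DBA/2J and CAST/EiJ in Igf1r.

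NZO/HlLtJ, the obesity and type 2 diabetes model, gave no call against the 7 strains other than NOD/ShiLtJ in the 10 genes (limma; 0 of 568 positions, 0 of 48 tiles and 0 of 9 bodies; no promoter was tested). At single positions this does not show that the strains are alike, since intervals with 3 samples are wide, such as 10.6 to 41.4 points at chr8:11006035 in Irs2. In the whole series 0.251% of positions, 0.296% of tiles and 1.39% of promoters and bodies were called in this contrast. At an unadjusted p under 0.05, 27 of the 568 positions passed, or 4.75%, against 6.70% of all tested positions. Likewise 1 of 48 tiles (12.5% in the series) and 1 of 9 bodies (14.1% in the series) passed. The tile, 100744 to 101743 bases into Igf1r, was 1.93 points higher in NZO/HlLtJ (95% interval -0.273 to 4.14, adjusted p = 0.389). The body that passed was Igfbp2, where NZO/HlLtJ averaged 62.4% ± 2.58 (SD, n = 3) against 57.6% over the 7 strains, a difference of 4.87 points (95% interval 0.543 to 9.20, adjusted p = 0.292). The next largest was Igf1, at 88.1% against 84.6%, a difference of 3.49 points (-1.14 to 8.12, adjusted p = 0.469). The intervals of all 9 bodies stayed within 10 points of 0. At Insr the difference was -1.09 points (-3.20 to 1.02), at Irs2 0.0224 points (-1.10 to 1.14) and at Foxo1 -1.12 points (-2.33 to 0.101). At Insr, Irs2 and Foxo1 this bounds the difference in the mean over kept positions to a few points. At Igfbp2 and Igf1 the intervals reached 9.20 and 8.12 points. Differences at single positions within the bodies are not bounded. At 15 of the 568 positions the difference reached 25 points, none with an adjusted p under 0.05. Over all tested positions of the series the 95th percentile of the absolute difference was 19.8 points.

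NOD/ShiLtJ, the autoimmune diabetes model, likewise had 0 calls among 568 positions, 48 tiles and 9 bodies (limma), against 0.305%, 0.344% and 1.57% in the series. In this and the direct contrast, series shares set beside bodies cover promoters and bodies together. Of bodies alone, 1.26% were called for NOD/ShiLtJ. At an unadjusted p under 0.05, 40 positions (7.04%, series 7.80%), 8 tiles (16.7%, series 13.9%) and 2 bodies (22.2%, series 15.9%) passed. With no minimum difference, 1 body (Dpp4; series 4.31%) and 1 tile (beside Igf1r; series 2.98%) had an adjusted p under 0.05. The Dpp4 body read 92.1, 88.4 and 91.7% in the NOD/ShiLtJ samples and between 90.9% and 97.5% in the 21 samples of the 7 other strains, so the groups overlapped. The means were 90.7% ± 2.04 (SD, n = 3) and 94.0%, a difference of -3.28 points (95% interval -5.08 to -1.49, adjusted p = 0.0424), below the 10 points set as the minimum. The adjusted p rose above 0.05 under 18 of 41 alternative settings, up to 0.347 without the NOD/ShiLtJ sample numbered 2, which also moved the difference to -2.11 points. The other body that passed without adjustment was Irs1, at -3.05 points (-5.28 to -0.814, adjusted p = 0.185). Its NOD/ShiLtJ samples read 34.3, 40.4 and 35.3% against a mean of 39.7% over the 7 strains, so 1 of the 3 samples lay above that mean. Downstream of Igf1r, at chr7:68237001-68238000 and beyond the end of its span, NOD/ShiLtJ read 81.9, 77.4 and 77.1% over 12 positions, below all 21 samples of the 7 other strains, which lay between 83.7% and 98.9%. This difference of -14.2 points (-20.7 to -7.65, adjusted p = 0.0246) also stayed below its minimum of 25 points. NZO/HlLtJ samples read 73.1, 90.1 and 94.1% at the same tile and overlapped both groups. The tile's adjusted p rose above 0.05 when any of the 3 NOD/ShiLtJ samples was left out, to between 0.0766 and 0.140. It also did so with an offset of 1 (0.0580) and without CAST/EiJ and PWK/PhJ (0.102). A tile with all NOD/ShiLtJ samples above or all below the 21 others was found once among 48 (2.08%) and in 0.457% of tiles in the series.

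**Figure D5:**
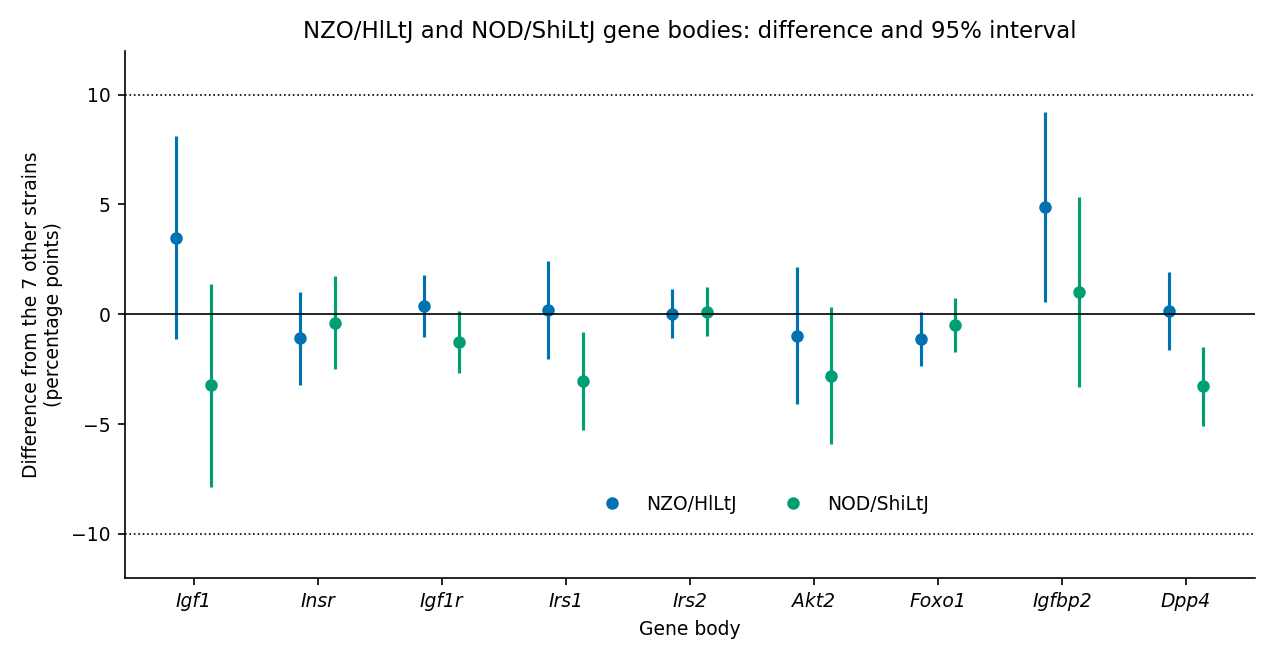
Difference in body methylation (percentage points, vertical axis) between NZO/HlLtJ or NOD/ShiLtJ and the mean of the 7 other strains, by gene (horizontal axis), with 95% intervals from limma's fit on the untransformed percentages; dotted lines mark the 10-point minimum. All intervals lie inside the dotted lines, and the NOD/ShiLtJ intervals of Dpp4 and Irs1 and the NZO/HlLtJ interval of Igfbp2 exclude 0.

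The contrasts of NZO/HlLtJ and NOD/ShiLtJ share the same 7 strains, so their values are given side by side without a comparison of the lists. The position chr8:11006035 in Irs2 was 26.0 points higher in NZO/HlLtJ than the 7 strains (unadjusted p = 0.00462, adjusted p = 0.319) and 28.3 points higher in NOD/ShiLtJ (unadjusted p = 0.00332, adjusted p = 0.239); the 7 strains include CAST/EiJ and PWK/PhJ. Compared directly with each other, NZO/HlLtJ and NOD/ShiLtJ differed by the criteria set at 0 of 568 positions, 0 of 48 tiles and 0 of 9 bodies (limma), against 0.267%, 0.519% and 1.25% of the series. At an unadjusted p under 0.05, 27 positions (4.75%, series 6.69%), 5 tiles (10.4%, series 10.2%) and 2 bodies (22.2%, series 11.4%) passed. The tiles lay in Igf1r (2), Dpp4, Akt2 and Irs2, with adjusted p-values from 0.184 to 0.484, and the bodies were Igf1 and Dpp4. The Igf1 body read 86.0, 72.5 and 85.7% in NOD/ShiLtJ, so the difference of 6.73 points from the NZO/HlLtJ mean (adjusted p = 0.353) rests largely on the sample numbered 2. The Dpp4 body was 3.44 points higher in NZO/HlLtJ than in NOD/ShiLtJ (adjusted p = 0.223). The median absolute difference over the 9 bodies was 0.966 points for NZO/HlLtJ and 1.26 points for NOD/ShiLtJ, against 1.30 and 1.38 points over all promoters and bodies tested.

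The wider pathway was read through 60 further genes, among them ligands, adaptors, phosphatases, kinases and binding proteins. They gave 65 tested promoters, gene ends and bodies, of which 13 were called different among strains (16.3% of all tested in the series), with a median range of 6.36 points against 6.57 over all tested; 4 of 13 promoters or ends (18.9% in the series) and 9 of 52 bodies (14.8% in the series) were called. Against the 7 other strains, 0 of 65 were called for NZO/HlLtJ and 0 of 65 for NOD/ShiLtJ (limma), where 1.39% and 1.57% of the series were. Between NZO/HlLtJ and NOD/ShiLtJ 1 of 65 was called (1.25% in the series), the body of Trib3, which encodes a pseudokinase that binds Akt: it stood at 75.0% ± 1.61 in NZO/HlLtJ and 86.3% ± 0.926 in NOD/ShiLtJ (SD, n = 3 each), a difference of -11.4 points (-16.3 to -6.45, adjusted p = 0.00719). The Trib3 mean over the 7 other strains was 78.3%, lower than in NOD/ShiLtJ (adjusted p = 0.00812), and Socs3 was 5.18 points higher in NZO/HlLtJ than over the 7 strains (adjusted p = 0.0248), both differences below the 10-point minimum. The widest range was at the lower-coordinate end of Foxo6, a brain-enriched relative of Foxo1, from 21.9% in 129S1/SvImJ to 47.7% in A/J. The body of Socs3, which encodes a feedback inhibitor of cytokine and insulin receptors, ranged from 9.26% ± 1.01 in A/J to 30.4% ± 2.91 in PWK/PhJ (SD, n = 3 each; limma, adjusted p = 8.6e-07). The Shc1 body (an adaptor that links receptors to Ras), the Igfbp6 promoter (a binding protein that prefers IGF2) and the Gsk3b body (a kinase that Akt inhibits) each spanned 17.2 points. PWK/PhJ was highest at Shc1 and Gsk3b and CAST/EiJ at Igfbp6.

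Files listed between 2904787 and 3156965 positions per sample. Of 12 hepatocyte markers, 5 had a promoter with enough positions, at 0.805% to 11.3%. The promoter of Csf1r, a macrophage marker, was at 93.2%. The endothelial promoters were at 3.13% (Kdr) and 92.2% (Tie1), those of stellate cells at 5.93% to 41.9% and those of bile duct cells at 1.02% to 91.4%. Whether the share of other cell types differed between strains was not tested.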

How the data were processed

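RRBS methylation of hepatocytes was analysed in 27 samples of 9 strains, grouped by the strain in their labels. Per the submitters' processing notes, reads were handled with Trim Galore 0.6.3, Bowtie2 and Bismark 0.22 on GRCm38 (mm10); a coverage filter is not given in the sources used here. The authors deposited, per the file headers, 1 percent methylation per position and sample, without counts, so depth is unknown. A count test had been planned for files with read counts; the values are percentages, so percentages were tested. Of the listed positions inside RefSeq promoter windows, 99.96% fell on a CpG of GRCm38.p6.

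Each strand of a CpG was its own position. Percentages were tested as log2((percent + 5)/(100 - percent + 5)) with limma's moderated F test and contrasts, all 9 strains sharing 1 spread, in Python 3.11.15 (numpy 2.4.6, scipy 1.17.1, pandas 2.3.3), without pairing. F matched limma 3.58.1 (R 4.3.3) within a relative 8.1e-15 at 81009 positions without missing values; over 100000 positions, 128 passed an adjusted p of 0.05 in only 1 of the 2 versions (15 of them without missing values). The code was also tested on simulated data. Tests ran on all features with a mean between 2.5 and 97.5%, and p-values were adjusted by Benjamini-Hochberg over all features of a kind. Calls needed an adjusted p under 0.05 and 25 points (positions, 1 kb tiles) or 10 points (promoters, bodies). Tiles, promoters and bodies needed at least 5 positions. Intervals in points come from the same fit on untransformed percentages. Of the 1802 member positions, 1175 were below 2.5% and 59 above 97.5%, which left 568.

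Named are all 10 genes, called tiles, up to 5 called positions outside called tiles, the widest tile of the other genes, the 3 regions most like the member with the smallest p, and up to 5 called regions of the 60-gene pathway list. The members and lists were chosen with earlier results of these data known. Same-numbered samples of different strains did not deviate together (76 pairs, correlations -0.00809 to 0.00882). Over a subset of kept positions with intermediate mean methylation, no 2 samples shared more than 16.0% of their values. The share over all kept positions is not given here. p-values measure the spread between 3 samples per strain. Alternatives covered the listing rule, offset, scale, mean filter, centring, minimum differences, strands, spans, promoter width, strains and single samples. Figures were drawn with matplotlib 3.10.9. 1 cell type marker is not reported here.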

Additional observations from a re-analysis of the deposited data

How the results depend on the processing

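Of the counts of called features, 87 of 103 values under alternative settings and 209 of 216 with 1 sample left out stayed within 1.5 times the value reported. For the counts above 0, among strains, this held for 34 of 39 values for positions. It held for 35 of 39 for tiles and 34 of 40 for promoters and bodies. All remaining values belong to counts reported as 0, which were taken as unchanged only when they stayed 0. The differences of the Dpp4 body and of the tile beside Igf1r in NOD/ShiLtJ kept their sign under every alternative. The other single values are ranges of strain means, which cannot change sign. Whether the order of the strains changed was not tested. Under alternative settings 60 values of single positions, tiles and bodies lost the call and 208 kept it. With 1 sample left out, 142 lost it and 506 kept it. A lowered or removed minimum and the gene span alone reused the main fit, so no call could be lost under them. The numbers of alternatives given for single positions and the Dpp4 body include these settings. The Dpp4 body and the tile beside Igf1r in NOD/ShiLtJ had no call. For these the loss of an adjusted p under 0.05 was counted instead. The 19 positions called among strains became 11 with an offset of 1, 32 on untransformed percentages, 12 without the filter on the mean and 1 without CAST/EiJ and PWK/PhJ, and ranged from 12 to 23 with 1 sample left out. The 2 called tiles became 8 with the minimum lowered to 10 points or removed, 5 with at least 3 positions and 0 without CAST/EiJ and PWK/PhJ; with 1 sample left out they ranged from 2 to 3. The 1 called body became 0 with samples centred, with the 500-base promoter and without CAST/EiJ and PWK/PhJ, 2 with a minimum of 5 points and 4 with none. For NOD/ShiLtJ, 1 position was called on untransformed percentages and 1 body with no minimum difference; with 1 sample left out, called positions ranged from 0 to 3 for NOD/ShiLtJ and from 0 to 1 for NZO/HlLtJ and for the direct contrast of both. The cause of these changes was not tested.

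Replicate numbers did not pair the samples: 5 of 27 correlated best with a sample of the same number. With the replicate block, 13 positions, 2 tiles and 0 bodies were called among strains, and the Igfbp2 body had an adjusted p of 0.0538; NZO/HlLtJ and NOD/ShiLtJ had 0 calls. Read depth behind single positions is unknown, so low coverage cannot be told apart from biological scatter.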

Other observations

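The promoters of Igf1, Igfbp1 and Dpp4 were listed in some samples without meeting the listing rule. Within 1 kb of the Igfbp1 start, 5 positions gave 67 values in 18 samples of 7 strains, with a mean of 1.78% and strain means up to 3.33%; no CAST/EiJ or PWK/PhJ sample listed any. Near the listed Igf1 start, which lies inside the gene span, 4 positions gave 6 values in 3 samples, all 0%. Near the Dpp4 start, 22 positions gave 144 values in 21 samples with a mean of 13.6%; positions that missed the rule near the most 5′ starts of the other 9 genes averaged at most 3.72% (Igf1r). Means at Dpp4 ran from 2.95% over 35 values in CAST/EiJ to 66.7% over 6 values in NZO/HlLtJ, but strains listed different positions, so these are values without a comparison.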
